A study of Saccharomyces cerevisiae with 6 samples.

Results

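Transcript levels of 9 genes that carry glucose signals in budding yeast, SNF3, RGT2, MTH1, STD1, RGT1, MIG1, MIG2, MIG3 and REG1, were followed across 6 Affymetrix arrays. The members were taken by gene symbol from a probe annotation table, and each of the 9 had 1 probe set among the 5449 Saccharomyces cerevisiae genes tested. Cells labelled BY4741, a haploid laboratory strain, were grown in rich medium containing glucose (YPD) and exposed for 3 hours to CID 3528206, a compound given only as this code, at 20 µM, to rapamycin at 200 nM, an inhibitor of the growth kinase complex TORC1, or to 1% DMSO, with 2 arrays in each group. The sources used here do not say whether the compound and rapamycin cultures also held DMSO, or whether duplicates came from separate cultures, so p values below reflect the spread of these arrays alone. The arrays measured RNA of whole cultures, in which a changed mix of cells and a changed amount of RNA per cell cannot be told apart.

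Yeast reads external glucose through Snf3 and Rgt2, membrane proteins related to glucose transporters that signal rather than carry sugar. With glucose bound, they lead to the destruction of Mth1 and Std1, which otherwise hold the repressor Rgt1 on the promoters of hexose transporter (HXT) genes. In a second branch the zinc-finger proteins Mig1, Mig2 and Mig3 repress genes for other carbon sources while glucose is plentiful, and Reg1 directs the phosphatase Glc7 against the kinase Snf1, which inactivates Mig1 when glucose runs low.

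All levels below are the deposited log2 values made with RMA, so 1 unit is a 2-fold difference. Differences after ± carry the standard error from limma, which pools the spread over the 3 groups, and adjusted p values are limma p values after Benjamini-Hochberg adjustment over all 5449 genes, with 0.05 as the threshold. The number of arrays limits the precision. Replicates differed across all genes with an SD of 0.267 after CID 3528206, 0.122 after rapamycin and 0.123 after DMSO. The pooled standard errors and p values can thus be too small for comparisons with the compound and too large for rapamycin against DMSO. CID 3528206 replicate 1 stood apart: its 3' minus 5' signal over control probe sets of 7 yeast genes averaged 1.69 log2 units, against 0.91 to 1.14 on the other 5 arrays. In the strain check, the genes HIS3, LEU2, MET17 and URA3, which are deleted in BY4741, read 10.39 to 12.11. The 5 alpha cell genes read 8.59 to 13.47 and the 7 a cell genes, those of the mating type of BY4741, read 4.89 to 8.24. These readings conflict with the BY4741 label, which could not be checked further, so the strain is given only as labelled. Every member lay far above the 95th percentile of Schizosaccharomyces pombe probe sets, a yeast not studied here, which was 4.27 to 4.38.

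After rapamycin, 5 of the 9 genes were higher than after DMSO (MIG2, MIG1, RGT2, MTH1 and MIG3), STD1 was lower, and SNF3, RGT1 and REG1 did not pass. The median log2 difference of the 9 was 0.75, beside -0.02 for all genes tested. Calls were common on these arrays, with 26.5% of all genes higher and 26.2% lower after rapamycin. For 8 of the 9 members both rapamycin arrays lay on one side of both DMSO arrays, as they did for 84.9% of all genes.

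After CID 3528206, 3 of the 9 were higher than after DMSO (MIG2, RGT2 and MIG3), SNF3 and STD1 were lower, and MTH1, RGT1, MIG1 and REG1 did not pass. The median log2 difference of the 9 was 0.18, beside -0.01 for all genes. Of all genes 26.1% were higher and 24.4% lower, and the arrays of the 2 groups did not overlap for 5 members and for 75.8% of genes. Without either DMSO array, or in a fit of the 4 arrays of the comparison alone, 3 members were called, the 3 that rose. Without CID 3528206 replicate 1 there were 5 calls, 4 higher and 1 lower, and without replicate 2 there were 7, 4 higher and 3 lower. Both treatments are set against the same 2 DMSO arrays.

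Set directly against rapamycin, at concentrations that differ, CID 3528206 gave lower levels of MTH1, MIG1 and MIG2 and no call for the other 6 members. Over all genes 9.32% were higher and 9.43% lower after the compound than after rapamycin, and the arrays did not overlap for 6 of the members and for 63.5% of genes. Without rapamycin replicate 1 the differences of MTH1, MIG1 and MIG2 were -1.14, -1.07 and -0.79, and without rapamycin replicate 2 they were -1.10, -1.07 and -0.88, against -1.12, -1.07 and -0.83 with all arrays. The sizes thus moved by little, while the 3 calls were lost in both fits, in which the calls over all genes fell to 105 and 96, against 1022 with all arrays.

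**Figure D1:**
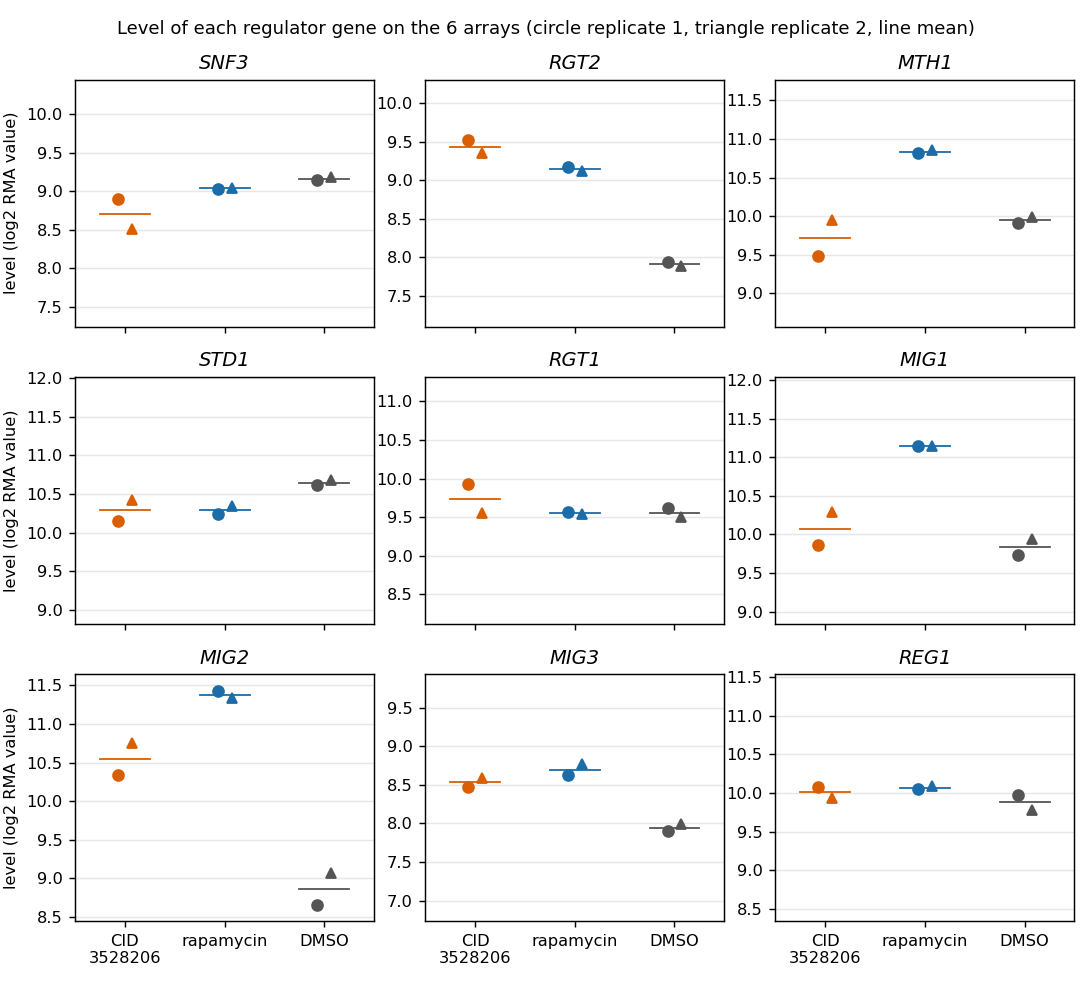
Level (log2 RMA value, vertical axis, the same span in every panel) of each of the 9 genes after CID 3528206, rapamycin and DMSO; circles are replicate 1, triangles replicate 2 and lines the mean of the 2 arrays. MIG2, RGT2 and MIG3 stand above DMSO after both treatments. MTH1 and MIG1 lie above the other 4 arrays only on the rapamycin arrays, and RGT1 and REG1 stay within a narrow band.

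The sensor genes moved in different ways. RGT2, which encodes the sensor with low affinity for glucose, read 9.52 and 9.36 after CID 3528206, 9.17 and 9.12 after rapamycin, and 7.94 and 7.89 after DMSO. The 3 groups did not overlap, and the DMSO arrays were lowest. The gene rose 2.88-fold after the compound (1.52 ± 0.08, adjusted p = 7.23e-05) and 2.35-fold after rapamycin (1.24 ± 0.08, adjusted p = 9.88e-05). The rise after the compound was larger than the absolute difference of 97.2% of genes, and that after rapamycin larger than 94.2%. Between the treatments RGT2 differed by 0.29 ± 0.08, higher after the compound, which did not pass (adjusted p = 0.0536, 95% interval 0.10 to 0.48). That difference passed without CID 3528206 replicate 2 (0.37, adjusted p = 0.00725) and with the replicate number as a block (adjusted p = 0.0319).

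SNF3, the gene of the high-affinity sensor, read 8.90 and 8.51 after CID 3528206, 9.03 and 9.04 after rapamycin, and 9.14 and 9.18 after DMSO. Both compound arrays were below all others, with 0.39 log2 units between them. The gene fell 1.37-fold after the compound (-0.45 ± 0.13, adjusted p = 0.0284). The call ended without DMSO replicate 1 (adjusted p = 0.0988) or DMSO replicate 2 (0.123) and without either rapamycin array (0.0572), and the adjusted p ranged from 0.000495 to 0.123 over the alternatives. The difference was -0.26 without CID 3528206 replicate 2 and -0.65 without replicate 1. After rapamycin the difference was -0.12 ± 0.13 (adjusted p = 0.462, 95% interval -0.44 to 0.19). That standard error includes the gap between the compound arrays, while both rapamycin arrays lay below both DMSO arrays. The adjusted p for rapamycin was 0.0653 or higher over the alternatives. Against rapamycin the compound gave -0.33 ± 0.13 (adjusted p = 0.12), which passed without CID 3528206 replicate 1 (-0.53, adjusted p = 0.00474).

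MTH1 and STD1 encode paralogous co-repressors that work with Rgt1. MTH1 read 9.48 and 9.95 after CID 3528206, 10.82 and 10.86 after rapamycin, and 9.91 and 9.99 after DMSO. The rapamycin arrays were the highest, and the compound and DMSO arrays overlapped. MTH1 rose 1.85-fold after rapamycin (0.89 ± 0.15, adjusted p = 0.0039), with values of 0.85 to 0.94 and adjusted p up to 0.0286 over all alternatives.

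After the compound MTH1 differed from DMSO by -0.23 ± 0.15 (adjusted p = 0.237, 95% interval -0.60 to 0.13). The compound arrays disagreed on it: the difference was -0.47 with replicate 1 alone (adjusted p = 0.0018) and 0.00 with replicate 2 alone (adjusted p = 0.986), in fits whose spread comes from the DMSO and rapamycin arrays only. Compared with rapamycin, MTH1 was 2.18-fold lower after the compound (-1.12 ± 0.15, adjusted p = 0.00866), a larger absolute difference than for 99.2% of genes. The value stayed between -1.36 and -0.89 over the alternatives, and the call ended without rapamycin replicate 1 (-1.14, adjusted p = 0.0679) or rapamycin replicate 2 (-1.10, 0.0794), where the difference was nearly as large.

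STD1 read 10.15 and 10.42 after CID 3528206, 10.24 and 10.34 after rapamycin, and 10.61 and 10.68 after DMSO. All 4 treated arrays were below both DMSO arrays, and the treated groups overlapped with each other. The falls were of similar size and small, -0.36 ± 0.11 after the compound (adjusted p = 0.0326) and -0.35 ± 0.11 after rapamycin (adjusted p = 0.032). The rapamycin call ended when DMSO replicate 1 (adjusted p = 0.0986), DMSO replicate 2 (0.153), rapamycin replicate 1 (0.168) or rapamycin replicate 2 (0.0832) was left out (range 0.00151 to 0.168 over the alternatives). The compound call ended without DMSO replicate 1 or 2 (0.0994 and 0.156), without either rapamycin array (0.061) and without CID 3528206 replicate 1 (-0.22, adjusted p = 0.05; range 0.00222 to 0.156). Between the treatments STD1 differed by 0.00 ± 0.11 (95% interval -0.26 to 0.25, adjusted p = 0.986).

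RGT1, the gene of the repressor that Mth1 and Std1 assist, read 9.93 and 9.55 after CID 3528206, 9.57 and 9.54 after rapamycin, and 9.62 and 9.50 after DMSO. The groups overlapped in every comparison, and CID 3528206 replicate 1 was the highest of the 6 arrays. The difference from DMSO was 0.18 ± 0.13 after the compound (adjusted p = 0.28) and -0.01 ± 0.13 after rapamycin (adjusted p = 0.971, 95% interval -0.32 to 0.31). With compound replicate 1 alone the difference from DMSO was 0.37 (adjusted p = 0.00644) and with replicate 2 alone it was -0.01 (adjusted p = 0.951). Between the treatments it was 0.19 ± 0.13 (adjusted p = 0.326), 0.38 with replicate 1 alone (adjusted p = 0.01) and 0.00 with replicate 2 alone (adjusted p = 0.998).

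Among the repressors of genes for other carbon sources, MIG2 showed the largest rise of the 9 genes after each treatment. After the compound RGT2 lay close to it (1.52 ± 0.08), and with compound replicate 1 alone RGT2 rose more (1.60 against 1.47). MIG2, itself known to be switched on by glucose through Rgt1, read 10.34 and 10.76 after CID 3528206, 11.43 and 11.33 after rapamycin, and 8.66 and 9.07 after DMSO. The groups did not overlap, and the DMSO replicates differed by 0.41 log2 units, as did those of the compound by 0.42. MIG2 rose 3.20-fold after the compound (1.68 ± 0.18, adjusted p = 0.000885) and 5.71-fold after rapamycin (2.51 ± 0.18, adjusted p = 0.00016), more than the absolute difference of 97.9% and 98.9% of genes. Both calls held under every alternative tried, with values of 1.47 to 1.92 and 2.31 to 2.72. Compared with rapamycin, MIG2 was 1.78-fold lower after the compound (-0.83 ± 0.18, adjusted p = 0.0297), a call that ended without rapamycin replicate 1 (-0.79, adjusted p = 0.157) or rapamycin replicate 2 (-0.88, adjusted p = 0.141), where the difference was of similar size. Its adjusted p ranged from 0.00442 to 0.157.

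MIG1, the gene of the main glucose repressor, read 9.86 and 10.29 after CID 3528206, 11.15 and 11.15 after rapamycin, and 9.73 and 9.95 after DMSO. The rapamycin arrays stood above the other 4, and the compound and DMSO arrays overlapped. MIG1 rose 2.48-fold after rapamycin (1.31 ± 0.15, adjusted p = 0.000947), with adjusted p up to 0.00943 over the alternatives. After the compound the difference from DMSO was 0.24 ± 0.15 (adjusted p = 0.233, 95% interval -0.13 to 0.61). It passed without CID 3528206 replicate 1 (0.45, adjusted p = 0.00968), while without replicate 2 it was 0.02 (adjusted p = 0.853). Compared with rapamycin, MIG1 was 2.10-fold lower after the compound (-1.07 ± 0.15, adjusted p = 0.00985), and the call ended at the same difference of -1.07 without rapamycin replicate 1 (adjusted p = 0.0761) or rapamycin replicate 2 (0.0831), with values of -1.29 to -0.86 over the alternatives.

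MIG3, the gene of the third zinc-finger repressor, read 8.48 and 8.58 after CID 3528206, 8.63 and 8.76 after rapamycin, and 7.89 and 7.99 after DMSO. Each group had replicates within 0.13 of each other, and both treated groups lay above DMSO. The gene rose 1.50-fold after the compound (0.59 ± 0.08, adjusted p = 0.0024) and 1.69-fold after rapamycin (0.75 ± 0.08, adjusted p = 0.000788), and both calls held under every alternative except the filter on low means, which removes the gene. The difference between the treatments was -0.17 ± 0.08 (adjusted p = 0.197, 95% interval -0.37 to 0.04).

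REG1, which encodes the regulatory subunit of the Glc7 phosphatase, read 10.08 and 9.94 after CID 3528206, 10.05 and 10.09 after rapamycin, and 9.97 and 9.79 after DMSO. The range over all 6 arrays was narrow, and the compound arrays overlapped with both other groups. No difference passed: 0.13 ± 0.09 after the compound (adjusted p = 0.283, 95% interval -0.10 to 0.36), 0.19 ± 0.09 after rapamycin (adjusted p = 0.137, interval -0.04 to 0.41) and -0.06 ± 0.09 between the treatments (adjusted p = 0.674).

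**Figure D2:**
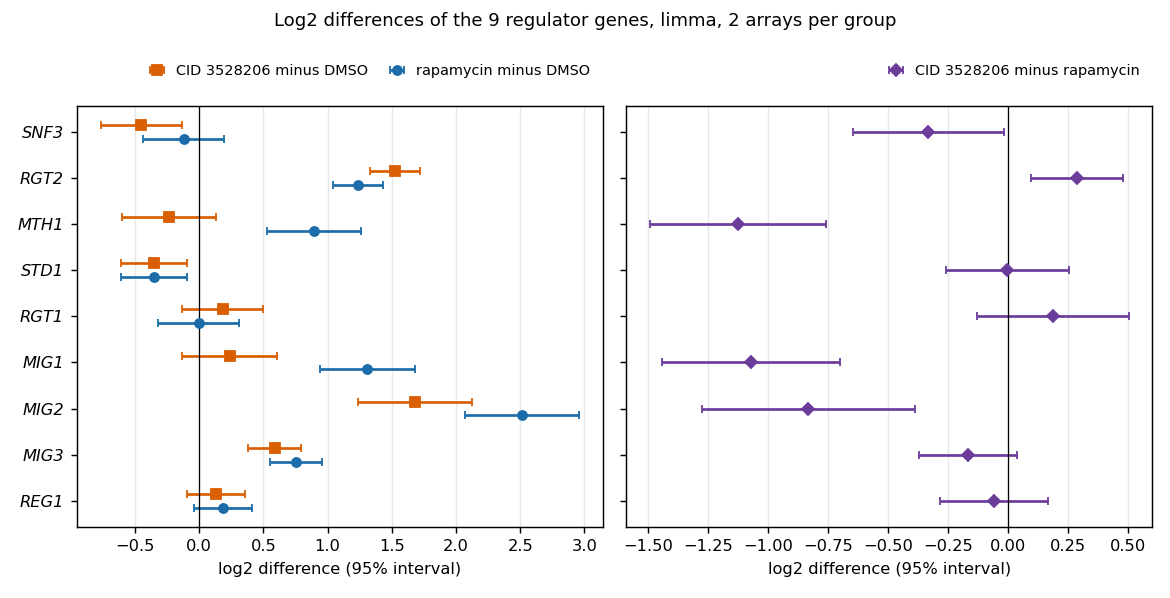
Log2 differences of the 9 genes from limma with 95% intervals (horizontal axes; scales differ between panels), from DMSO on the left (squares CID 3528206, circles rapamycin) and compound minus rapamycin on the right. MIG2 reached 1.68 after the compound and 2.51 after rapamycin. In the right panel MTH1 (-1.12), MIG1 (-1.07) and MIG2 (-0.83) lie farthest left, and the interval of MIG2 overlaps that of SNF3 (-0.33).

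The compound replicates did not give equal accounts of these genes. The gap between them was 0.47 for MTH1, 0.43 for MIG1, 0.42 for MIG2, 0.39 for SNF3, 0.38 for RGT1 and 0.27 for STD1, and 0.16 or less for RGT2, REG1 and MIG3. The rapamycin replicates differed by no more than 0.13 for any of the 9. Replicate 1 of the compound, the array with the highest 3' minus 5' signal, read lower than replicate 2 for MTH1, STD1, MIG1, MIG2 and MIG3, and higher for SNF3, RGT2, RGT1 and REG1. Fits without 1 compound array take their spread from the DMSO and rapamycin arrays alone, whose replicates lay closer together, so their adjusted p values, here and above, assume that the lone compound array varies as little and may be too small.

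**Figure D3:**
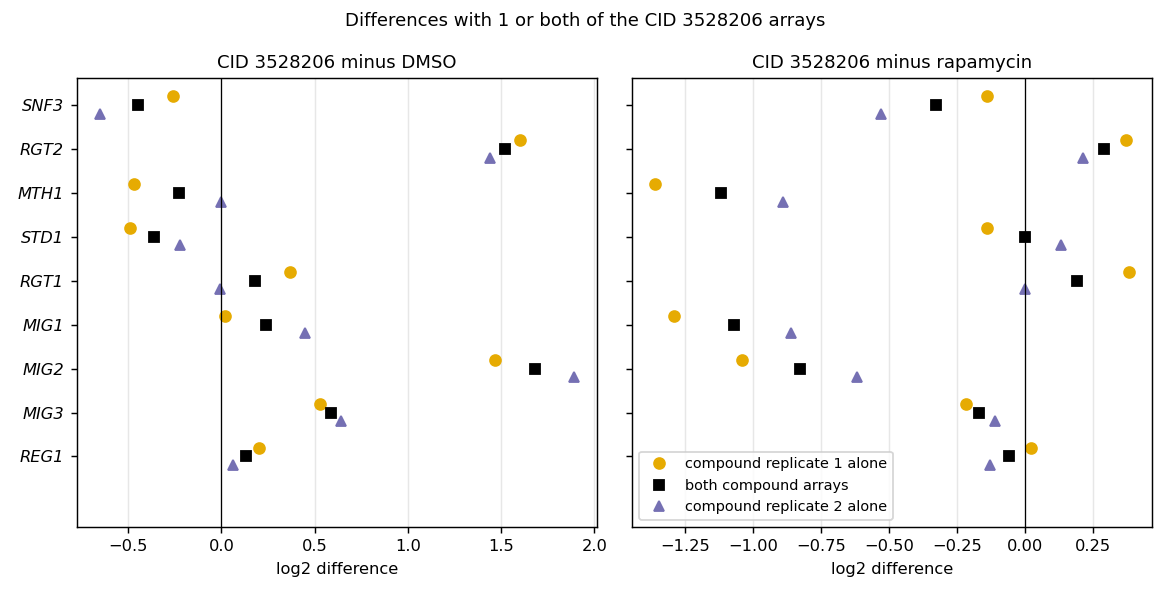
Log2 difference of each gene from DMSO (left) and from rapamycin (right) with both CID 3528206 arrays (black squares) or with replicate 1 or replicate 2 alone (circles, triangles); no error bars are drawn, and horizontal scales differ. Against DMSO, MTH1 moved between -0.47 and 0.00 and MIG1 between 0.02 and 0.45, while RGT2, MIG2 and MIG3 kept to the right of 0. Against rapamycin, SNF3, MTH1, MIG1, MIG2 and MIG3 lay to the left of 0 in each case, and RGT2 lay to the right.

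Related genes within the set changed unequally. The change of RGT2 exceeded that of SNF3 by 1.98 log2 units after the compound and by 1.36 after rapamycin. The change of MTH1 exceeded that of STD1 by 1.24 after rapamycin but by 0.12 after the compound. MIG2 exceeded MIG1 by 1.44 after the compound and by 1.20 after rapamycin, so the contrast within this pair differed by 0.24 between the treatments. MIG1 rose more than MIG3 after rapamycin, by 0.56, and the same contrast was -0.35 after the compound. In each of these pairs the within-array differences of the treated arrays and of the DMSO arrays did not overlap. For MTH1 and STD1 after the compound the separation was narrow, with replicate 1 only 0.02 above the DMSO mean. RGT1 and MTH1, also compared, overlapped after the compound, where the replicates lay 0.84 and -0.01 from the DMSO mean. How often other gene pairs overlap was not counted. An exact permutation test of 2 against 2 arrays cannot go below a two-sided p of 0.333, and no model was fitted to these contrasts.

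Of 18 measured genes (the sensor-linked casein kinases and ubiquitin ligase, hexokinase 2, the Tup1-Cyc8 co-repressor, the Snf1 kinase complex with its activating kinases, and phosphatase and repressor partners), 4 rose, 6 fell and 8 did not pass after the compound, and 3 rose, 7 fell and 8 did not pass after rapamycin. Over all genes 26.1% rose and 24.4% fell after the compound, and 26.5% rose and 26.2% fell after rapamycin, so the shares of partners called lay near those of all genes. The median difference of the partners was -0.11 after the compound and -0.19 after rapamycin, beside -0.01 and -0.02 for all genes. REG2, a paralogue of REG1, read 8.77 and 8.91 after the compound, 9.67 and 9.79 after rapamycin, and 8.25 and 8.31 after DMSO, with no overlap between groups. It rose by 0.56 ± 0.08 after the compound (adjusted p = 0.00265) and by 1.46 ± 0.08 after rapamycin (adjusted p = 6.66e-05), and was 1.86-fold lower after the compound than after rapamycin (-0.90 ± 0.08, adjusted p = 0.00333). NRG1, the gene of another glucose-dependent repressor, rose by 0.64 ± 0.06 after the compound and by 1.12 ± 0.06 after rapamycin. GAL83, a beta subunit of the Snf1 complex, fell by 0.85 ± 0.07 after the compound and by 0.86 ± 0.07 after rapamycin, and TOS3, a kinase that activates Snf1, by 0.54 ± 0.09 after the compound and 0.87 ± 0.09 after rapamycin. The adjusted p for NRG1, GAL83 and TOS3 was 0.00361 or lower in both comparisons.

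Between the treatments, 3 of these 18 genes were higher after the compound, 2 were lower and 13 did not pass, beside 9.32% higher and 9.43% lower over all genes. NRG1 was lower by -0.48 ± 0.06 (adjusted p = 0.0085), a call that ended, at differences of -0.46 and -0.50, without rapamycin replicate 1 (adjusted p = 0.0876) or 2 (0.0832). TUP1 was higher by 0.35 ± 0.07 (adjusted p = 0.0214) and TOS3 by 0.34 ± 0.09 (adjusted p = 0.0457). Without rapamycin replicate 1 or 2 the TUP1 difference was 0.31 and 0.39 and the TOS3 difference 0.40 and 0.27. Both calls ended without any 1 of the DMSO or rapamycin arrays, with adjusted p up to 0.165 for TUP1 and 0.264 for TOS3, and that for TOS3 also without CID 3528206 replicate 1 (0.0653).

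Genes that Rgt1 represses were read out as 7 targets, 4 hexose transporter genes with HXK2, YKR075C and YOR062C. After the compound 3 rose, 3 fell and 1 did not pass, with a median of -0.01, beside -0.01 over all genes, of which 26.1% rose and 24.4% fell. After rapamycin 5 rose, 1 fell and 1 did not pass, with a median of 0.46, beside -0.02 over all genes, of which 26.5% rose and 26.2% fell. YKR075C, an open reading frame of unknown function, read 9.88 and 10.68 after the compound, 12.13 and 12.23 after rapamycin, and 8.20 and 8.63 after DMSO. It rose 3.64-fold after the compound (1.87 ± 0.27, adjusted p = 0.00255) and 13.6-fold after rapamycin (3.77 ± 0.27, adjusted p = 0.000158). Its paralogue YOR062C rose by 1.01 ± 0.12 after the compound (adjusted p = 0.0014) and by 1.92 ± 0.12 after rapamycin (adjusted p = 0.000101).

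HXT1, which encodes a low-affinity glucose transporter, fell by 0.85 ± 0.08 after the compound (adjusted p = 0.000464) and by 0.70 ± 0.08 after rapamycin (adjusted p = 0.000781). HXT4 read 11.45 and 11.51 after the compound, 13.03 and 13.08 after rapamycin, and 12.76 and 12.76 after DMSO. It fell 2.42-fold after the compound (-1.27 ± 0.07, adjusted p = 7.23e-05) and rose 1.23-fold after rapamycin (0.30 ± 0.07, adjusted p = 0.0113). HXT3, a low-affinity transporter gene, rose by 0.74 after the compound (adjusted p = 0.000488) and by 0.83 after rapamycin (adjusted p = 0.000237), and HXT2 fell by 0.29 ± 0.09 after the compound (adjusted p = 0.041) and rose by 0.46 ± 0.09 after rapamycin (adjusted p = 0.00838). The HXT2 call after the compound ended without any 1 array other than CID 3528206 replicate 2 (adjusted p 0.0721 to 0.226), and that after rapamycin without DMSO replicate 1 (0.0649) or rapamycin replicate 2 (0.0655). HXT2 and HXT3 were named after their values were seen. Between the treatments 4 of the 7 were lower after the compound and 3 did not pass, with a median of -0.75, beside 0.00 over all genes, of which 9.43% were lower. HXT4 was lower by -1.57 ± 0.07 (adjusted p = 0.000857) and YKR075C by -1.90 ± 0.27 (adjusted p = 0.0101). The YKR075C call ended, at differences of -1.95 and -1.85, without rapamycin replicate 1 (adjusted p = 0.0714) or 2 (0.0832).

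Genes repressed while glucose is plentiful mostly rose after both treatments. Of 17 genes listed, 15 were measured, and HXT6 and GAL4 were not analysed here. After the compound 10 rose, 2 fell and 3 did not pass, with a median difference of 0.91, where 26.1% of all genes rose and 24.4% fell. HXT13, 1 of the 3, read 2.99 to 3.58 on the 6 arrays, under the level given above for S. pombe. After rapamycin 10 rose, 1 fell and 4 did not pass, with a median of 1.45, where 26.5% of all genes rose and 26.2% fell. JEN1, a lactate and pyruvate permease, read 9.06 and 9.16 after the compound, 10.72 and 10.56 after rapamycin, and 7.02 and 7.22 after DMSO. It rose 3.98-fold after the compound (1.99 ± 0.10, adjusted p = 6.32e-05) and 11.5-fold after rapamycin (3.52 ± 0.10, adjusted p = 6.48e-06).

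Other members of that group also rose, or differed in the opposite direction. ICL1, the isocitrate lyase of the glyoxylate cycle, rose 7.80-fold after rapamycin (2.96 ± 0.14, adjusted p = 3.84e-05). After the compound ICL1 rose 2.74-fold (1.46 ± 0.14, adjusted p = 0.000546). SIP4, an activator of gluconeogenic genes, rose 4.88-fold after the compound (2.29 ± 0.16, adjusted p = 0.000202). It rose 3.93-fold after rapamycin (1.97 ± 0.16, adjusted p = 0.00026), and the difference between the treatments did not pass (0.31 ± 0.16, adjusted p = 0.215). SUC2, which encodes invertase and is a classical Mig1 target, fell by 0.28 ± 0.07 after rapamycin (adjusted p = 0.0137), a call that ended without any 1 of the DMSO or rapamycin arrays (differences -0.31 to -0.25, adjusted p 0.0688 to 0.11). HXT7, a high-affinity transporter read by a probe set that can also bind its near-identical neighbour HXT6, fell 3.78-fold after the compound (-1.92 ± 0.07, adjusted p = 1.89e-05), and the hexokinase gene HXK1 fell 2.16-fold (-1.11 ± 0.07). After rapamycin they differed from DMSO by -0.04 ± 0.07 and -0.16 ± 0.07, which did not pass.

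Between the treatments 10 of the 15 were lower after the compound, 1 was higher and 4 did not pass, with a median of -0.76, beside 9.43% lower and 9.32% higher over all genes. The largest differences were for HXT7 (-1.88 ± 0.07, adjusted p = 0.000556) and JEN1 (-1.53 ± 0.10, adjusted p = 0.00256). SUC2 was the gene higher after the compound (0.41 ± 0.07, adjusted p = 0.0136), a call that ended without any 1 of the DMSO or rapamycin arrays (differences 0.38 to 0.44, adjusted p up to 0.12).

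**Figure D4:**
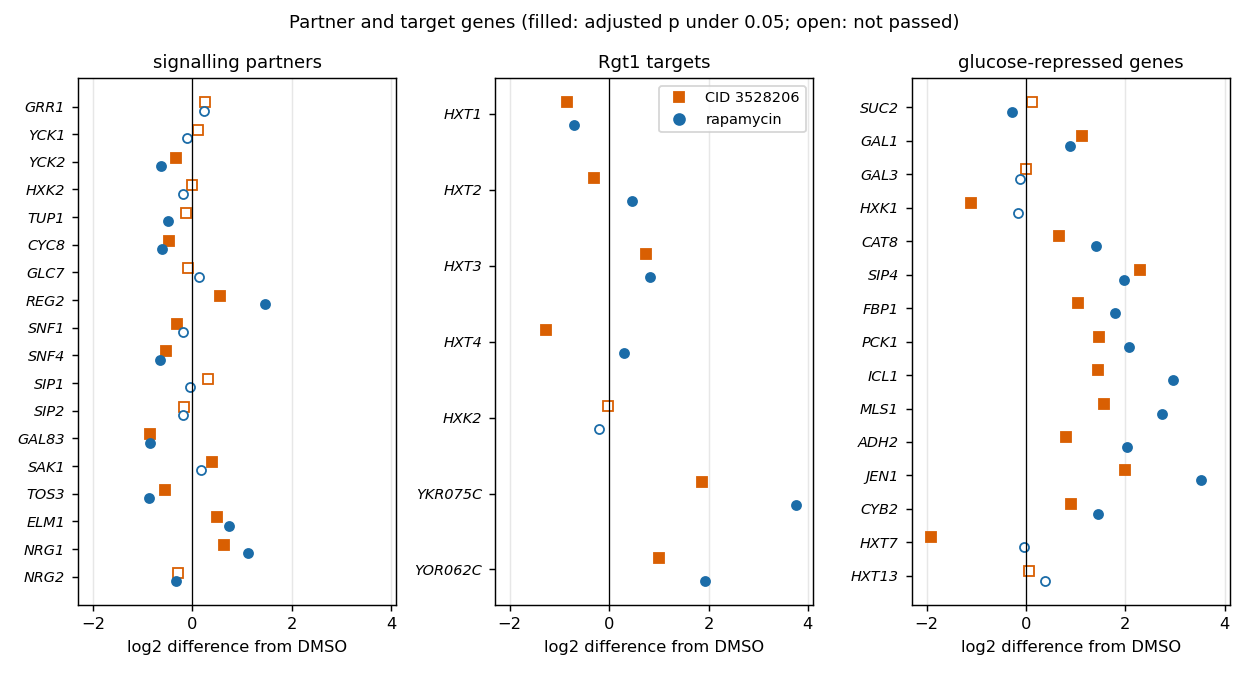
Log2 difference from DMSO (horizontal axes, same scale) after CID 3528206 (squares) and rapamycin (circles) of 18 signalling partners, 7 genes repressed by Rgt1 and 15 glucose-repressed genes; filled symbols passed the adjusted p threshold. YKR075C (3.77) and JEN1 (3.52) lie farthest right after rapamycin, and HXT7 (-1.92) and HXT4 (-1.27) farthest left after the compound.

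Profiles most like those of the 3 members with the largest differences were found by the distance between levels on the 6 arrays, each gene centred on its own mean. Genes chosen in this way have differences close to those of the member by construction. Closest to MIG2 were BSC4 (distance 0.24 log2 units), PLN1 (0.32) and SKS1 (0.38), where the median distance of all genes was 2.64. PLN1 and SKS1 rose by 1.76 and 1.60 after the compound and by 2.64 and 2.25 after rapamycin. BSC4 averaged 4.30 after DMSO, within the range given above for S. pombe, so the size of its difference and its place as nearest are uncertain, and no rise is given for it. Closest to RGT2 were SRL3 (0.11), MET10 (0.14) and PAU5 (0.15), with a median over all genes of 1.68, and their rises were 1.52, 1.56 and 1.49 after the compound and 1.21, 1.24 and 1.20 after rapamycin. PAU5 was read by a probe set that can bind related genes.

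The genes closest to MIG1 were GUT2 (0.25), PBI2 (0.31) and KNH1 (0.33), where the median was 1.52. After rapamycin they rose by 1.31, 1.12 and 1.61. After the compound GUT2 and PBI2 differed from DMSO by 0.26 and 0.27 and did not pass, and KNH1 rose by 0.44 ± 0.12 (adjusted p = 0.0226), a call that ended without DMSO replicate 1 (0.132). The likeness describes 6 arrays in 3 groups, and many genes may share such patterns, which was not counted.

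**Figure D5:**
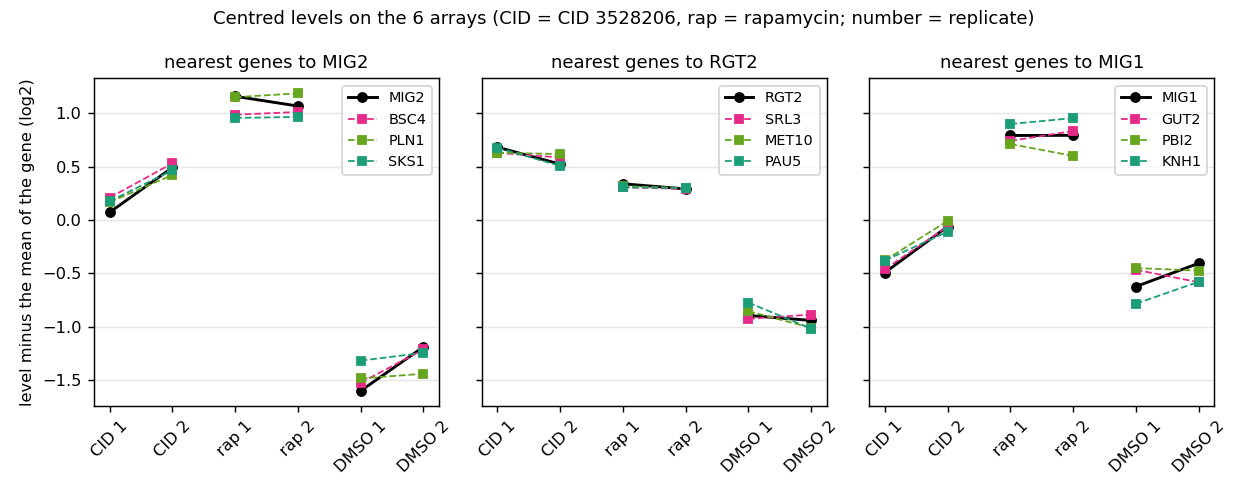
Levels minus the mean of each gene (log2, vertical axis) on the 6 arrays for MIG2, RGT2 and MIG1 (black) and the 3 genes nearest to each (coloured, dashed); lines join the replicates of a group. MIG2 is intermediate after CID 3528206, highest after rapamycin and lowest after DMSO, RGT2 is highest after the compound, and MIG1 is high on the rapamycin arrays alone.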

How the data were processed

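RNA of 6 yeast cultures (3 groups of 2) was labelled from 100 ng of total RNA and hybridised to Affymetrix arrays, per the labels' protocols. The deposited values are log2 values, 1 per probe set and array, made by the authors with RMA, per the submitters' processing notes; its version and settings: not given in the sources used here. Of 10928 probe sets, 5498 named 1 S. cerevisiae gene, giving 5449 genes after keeping the probe set with the highest mean. Names came from the platform annotation, with 12 symbols updated through RefSeq assembly R64. No low-value filter was applied. The 6 arrays entered 1 linear model with 3 group means, which left 3 residual degrees of freedom (lmFit and eBayes of limma 3.58.1, R 4.3.3), and tests were two-sided. The fit was tested on simulated data in which all groups had the same spread, so that test does not cover the wider spread of the compound arrays. The 9 members, the gene lists and the alternatives were chosen with earlier results of these data known. The named genes are the 9 members, the 2 largest rises and falls called in each other list and comparison, and the 3 nearest profiles for the 3 members with the largest differences; HXK2 is in both the partner and the target list. Genes named in other places were chosen after their values were seen. Alternatives, 17 per comparison with 2 chosen after seeing the data, are given in the closing section.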

Additional observations from a re-analysis of the deposited data

How the results depend on the processing

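Of the 9 genes, MIG2, RGT2, MIG3, MTH1 and MIG1 after rapamycin, and MIG2, RGT2 and MIG3 after CID 3528206, kept direction and call under every alternative that tested them at 0.05. Leaving out 1 array gave 1794 to 3698 called genes for rapamycin, 1553 to 3552 for the compound and 96 to 2646 between treatments, where 2873, 2752 and 1022 were called with all arrays; members called ranged from 3 to 7 for the compound and from 0 to 5 between treatments. The 0 came from limma without either rapamycin array, where 4 (without replicate 1) and 3 (without replicate 2) of the 9 had an unadjusted p under 0.05. An adjusted p under 0.01 left 1872, 1706 and 214 genes and ended the calls for STD1 after rapamycin (-0.35), SNF3 (-0.45) and STD1 (-0.36) after the compound (3 members called), and MIG2 between treatments (-0.83). Testing all probe sets (409 genes between treatments) ended the same 4 calls, again with 3 members called for the compound. The 4 arrays of a comparison alone gave 397 genes between treatments and ended the compound calls for SNF3 and STD1 (3 members called). When the genes with the lowest means were left out, 2 members were called for the compound, since SNF3, RGT2 and MIG3 are then not tested. Group weights, added later, gave 641 genes between treatments and ended the MIG2 call (-0.83). The 3' minus 5' covariate, added later, varies within groups mainly through CID 3528206 replicate 1 and so by construction lies near a fit without it; it gave 1888 genes and 5 members between treatments, MIG1 called after the compound (0.47), SNF3 (-0.48) and RGT2 (0.22) called between treatments, and turned the uncalled MTH1 (0.01) and RGT1 (-0.02) after the compound. Ranges without 1 array were, after rapamycin, -0.41 to -0.30 for STD1 and -0.07 to 0.05 for RGT1; after the compound, -0.65 to -0.26 for SNF3, -0.47 to 0.00 for MTH1, -0.49 to -0.22 for STD1, -0.01 to 0.37 for RGT1 and 0.02 to 0.45 for MIG1; between treatments, -0.53 to -0.14 for SNF3, 0.21 to 0.37 for RGT2, -1.36 to -0.89 for MTH1, -0.14 to 0.13 for STD1, 0.00 to 0.38 for RGT1, -1.29 to -0.86 for MIG1, -1.04 to -0.62 for MIG2 and -0.13 to 0.02 for REG1. Apart from these constructions, the cause of the changes was not tested. The labels give no pairing of same-numbered arrays; their replicate differences correlated across genes by 0.25 to 0.43 between groups, and the replicate block changed 1 member call, RGT2 between treatments (0.29, adjusted p = 0.0319). Quantile normalization and centring ended no member call. The 2 arrays per group and the wider spread of the compound replicates limit what small differences can show.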
